A study of Mus musculus with 4 samples.

Results

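The genes of bile acid and lipid nuclear receptors, 10 in all with their direct targets, were followed in laser-captured crypts of the mouse intestine, namely the bile acid receptor gene Nr1h4, its targets Nr0b2 and Fgf15, the shared partner gene Rxra, the fatty acid receptor genes Ppara, Ppard and Pparg, the oxysterol receptor gene Nr1h3, the xenobiotic receptor gene Nr1i2 and the vitamin D receptor gene Vdr. The genes were taken by symbol, and each probe set that the platform annotation gives to 1 of these symbols alone was used. All 10 genes had such a probe set, 17 probe sets of the 45037 measured. A further 1 probe set that the annotation gives to Ppard and a second symbol was left out. The mutant group held 2 arrays of beta-catenin mutant crypts, taken 2 days after tamoxifen had induced the loss of the gene, and the control group held 2 arrays of control crypts. Both groups were mouse crypt cells cut out by laser, and both went through 2 rounds of mRNA amplification. The labels give no strain, sex, age, promoter of the recombinase or stretch of intestine, and do not say whether the controls received tamoxifen or whether replicates are different mice. The p-values below thus cover the spread among these 4 arrays alone, and that spread could be technical.

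As background, nuclear receptors are transcription factors that are switched by small lipid-soluble ligands and that mostly bind DNA together with a retinoid X receptor. In the ileum, bile acids taken up by enterocytes activate the receptor FXR, the product of Nr1h4. FXR then induces Nr0b2, which encodes the co-repressor SHP, and Fgf15, a hormone that travels to the liver and lowers bile acid synthesis. The PPAR receptors sense fatty acids, the liver X receptor senses oxysterols, PXR senses drugs and other foreign compounds, and the vitamin D receptor governs calcium uptake in the proximal intestine. Ppard has been described as a target of beta-catenin and TCF in human colorectal cancer cells.

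Promoter sequence was available for 9 of the 10 genes, in 13 windows of 250 bases before a transcription start (RefSeq, GRCm38.p6). For 4 genes 1 window each is given here. Nr1h4, Ppara and Rxra are shown because their brightest probe sets were higher on both mutant arrays than on both controls, in normalized and in deposited values alike. Nr1h3 met this in normalized values alone, and its windows held none of the motifs below. Rxra has a second window, which held none either, and the one with matches is shown. Ppard is shown because of its background as a TCF target. Capitals mark AGGTCA or GGGTCA, core letters that these receptors bind, and CTTTGA, a form of the core letters that TCF factors bind, on either strand. Other forms, such as CTTTGT for TCF factors, were not searched and are not marked. The starts used for Nr1h4, Ppara and this window of Rxra lie within the annotated span of the gene.
Nr1h4, chr10:89506659-89506908, minus strand: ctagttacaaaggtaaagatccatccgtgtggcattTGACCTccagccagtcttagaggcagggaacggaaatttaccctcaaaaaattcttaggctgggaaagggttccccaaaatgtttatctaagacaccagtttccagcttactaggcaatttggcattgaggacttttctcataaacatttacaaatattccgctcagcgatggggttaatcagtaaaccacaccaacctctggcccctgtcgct
Ppara, chr15:85735526-85735775, plus strand: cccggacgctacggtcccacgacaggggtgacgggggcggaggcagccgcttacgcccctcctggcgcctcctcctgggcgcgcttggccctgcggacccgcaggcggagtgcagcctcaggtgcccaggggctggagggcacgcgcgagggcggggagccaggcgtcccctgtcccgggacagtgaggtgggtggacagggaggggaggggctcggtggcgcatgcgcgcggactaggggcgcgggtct
Rxra, chr2:27709042-27709291, plus strand: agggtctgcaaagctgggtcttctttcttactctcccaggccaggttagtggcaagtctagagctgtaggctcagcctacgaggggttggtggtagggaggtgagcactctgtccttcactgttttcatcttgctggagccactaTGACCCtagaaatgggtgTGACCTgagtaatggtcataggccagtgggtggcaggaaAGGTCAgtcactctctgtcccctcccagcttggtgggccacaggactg
Ppard, chr17:28232504-28232753, plus strand: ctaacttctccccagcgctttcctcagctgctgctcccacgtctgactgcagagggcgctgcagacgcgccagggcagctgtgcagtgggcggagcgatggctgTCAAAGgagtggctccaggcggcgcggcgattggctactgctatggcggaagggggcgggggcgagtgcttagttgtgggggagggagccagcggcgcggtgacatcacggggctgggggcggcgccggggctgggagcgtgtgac

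The Nr1h4 window held AGGTCA once, on the reverse strand at 214 bases before the start, and the Ppara window held none of the 3 motifs. The Rxra window shown held AGGTCA at 87 and 48 bases and GGGTCA at 105 bases before the start. The Ppard window held CTTTGA at 146 bases before the start, on the reverse strand. Over all 13 windows, 4 held AGGTCA, 3 held GGGTCA and 2 held CTTTGA. Of the 32851 promoter windows of the same length in the table, 14.0% held AGGTCA, 11.6% held GGGTCA and 13.8% held CTTTGA. Pairs of AGGTCA in direct repeat with a gap of 0 to 5 bases, or in inverted repeat with a gap of 1 base, were found in 0 of the 13 windows, and each arrangement was held by at most 0.0335% of all windows. A match is a description of the letters and not a measured binding site.

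Levels are given as log2(intensity + 5) after quantile normalization unless deposited intensities are named, and they are compared between arrays for 1 probe set at a time. Epithelial identity was clear on all arrays, since the 12 general epithelial markers, Epcam, Cdh1 and Vil1 among them, had mean log2 signals of 11.45 and 11.43 in the mutants and 11.32 and 11.36 in the controls. The brightest probe set of Ctnnb1, the gene of beta-catenin, stood at 12.02 and 11.85 in the mutants and 12.43 and 12.56 in the controls. The deleted exons are not named, and a probe set that lies outside them checks nothing. The 5′ to 3′ signal ratio of beta-actin, which drops as RNA shortens, was 0.0945 and 0.0448 in the mutants and 0.149 and 0.0567 in the controls. Within a group the correlation across kept probe sets was 0.918 for the mutants and 0.932 for the controls, and across groups it lay between 0.912 and 0.936, over probe sets that are not independent replicates.

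Each mutant array stood apart from the other 3 arrays in its own way. Mutant replicate 1 carried pancreatic acinar transcripts, with a mean of 12.66 over 14 markers, against 5.30 in mutant replicate 2 and 5.64 and 5.62 in the controls. Of these markers 13 were highest on that array. Mutant replicate 2 was low in genes of the proximal intestine. The 17 listed proximal genes averaged 9.20 and 7.85 in mutant replicates 1 and 2 and 9.41 and 9.14 in control replicates 1 and 2, and 10 of them were lowest in mutant replicate 2. Pdx1, a transcription factor gene of the duodenum, stood at 6.62 and 3.02 in mutant replicates 1 and 2, against 5.85 and 6.74 in the controls. Ada, the duodenal adenosine deaminase gene, stood at 12.63 and 6.58 in mutant replicates 1 and 2, against 10.62 and 12.08 in the controls. The 13 genes of the ileal list, Fgf15 among them, averaged 6.97 and 7.19 in the mutants and 6.81 and 6.31 in the controls. The hormone genes in that list are not all confined to the ileum.

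Across all 22519 probe sets tested with limma, 0 differed between mutant and control at an adjusted p below 0.05, a share of 0.00%, although 1415 had an unadjusted p below 0.05. Of the 17 member probe sets, 14 passed the filter on low signal, for 9 of the 10 genes, and 0 of the 14 passed the test. Among the 14, 8 were higher and 6 lower in the mutants, with a median difference of 0.14 on the log2 scale, against -0.00242 for all probe sets tested. On 5 of the 14 both mutant arrays stood above both control arrays, where 17.3% of all probe sets tested did so. On 0 of the 14 both mutant arrays stood below both controls, where 18.9% of all probe sets did so. In the deposited intensities 1 of the 14 did, a dimmer probe set of Rxra, where 3567 of 22519 probe sets did so. The 5 probe sets belong to Nr1h4, Ppara (2 probe sets), Rxra and Nr1h3. In the deposited intensities 3 of the 5 kept this pattern, for Nr1h4, Ppara and Rxra. Of 22519 probe sets, 2989 had it in the deposited intensities.

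**Figure D1:**
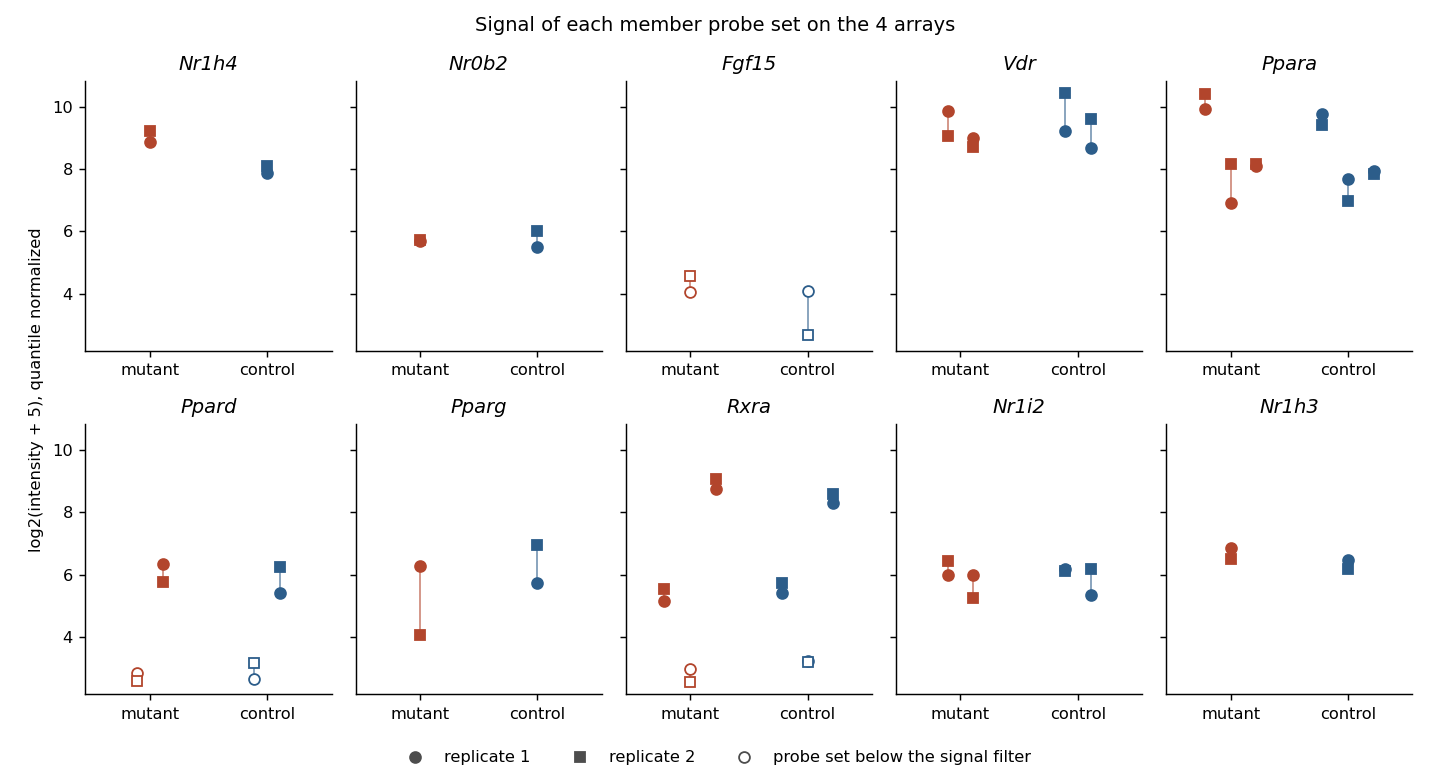
Signal of the 17 member probe sets on each array, as log2(intensity + 5) after quantile normalization on the vertical axis, with mutant (left, red) and control (right, blue) crypts for each gene; circles are replicate 1, squares replicate 2, a thin line joins the 2 arrays of a group for 1 probe set, and open symbols are probe sets below the filter on low signal. Nr1h4 separates by group, with 8.88 and 9.21 in the mutants and 7.86 and 8.10 in the controls. The replicates of each group lie far apart for Pparg and the brighter Vdr probe set.

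Nr1h4, the bile acid receptor gene, was the member with the clearest separation between the groups. Its deposited intensities were 614 and 482 in the mutants, against 227 and 270 in the controls. On the normalized scale it averaged 9.04 ± 0.23 in the mutants and 7.98 ± 0.17 in the controls (SD, n = 2 each), so every mutant value lay above every control value. The difference was 1.07 (SE 0.34, 95% interval 0.28 to 1.85), a fold of 2.09 on the log2(intensity + 5) scale. It had an unadjusted p of 0.0137 in the limma fit, and higher probe sets with an unadjusted p below 0.05 made up 2.74% of all tested. It missed the threshold once adjusted across the table (limma, adjusted p = 0.768). The difference was 0.89 without mutant replicate 2 and 1.21 without mutant replicate 1, the one that held pancreatic transcripts. Each mutant array taken alone thus lay above the controls.

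Markers of mature cells and of stem cells are given beside Nr1h4, since crypt cell types differ in their receptors. The 19 listed enterocyte markers averaged 11.40 and 10.47 in the mutants and 11.16 and 9.98 in the controls, and the groups overlapped. Gene by gene 15 of the 19 were higher in the mutants, 5 of them without overlap, and 0 were lower without overlap. Of all genes tested, 18.9% were higher and 19.2% lower without overlap. The 10 goblet cell markers averaged 10.77 and 10.49 in the mutants and 9.70 and 10.52 in the controls, and 6 of the 10 were higher without overlap. The 12 crypt base stem cell markers averaged 6.81 and 6.93 in the mutants and 7.86 and 8.16 in the controls. Of the 11 that passed the filter, 11 were lower in the mutants without overlap. The part of these cell types in the Nr1h4 difference was not tested. In these bulk captures, fewer cells of a type and less RNA per cell cannot be told apart.

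Of the targets of FXR, Nr0b2 was nearly level between the groups. The probe set of this co-repressor gene stood at 5.68 and 5.73 in the mutants, between the control values of 5.49 and 6.01. The difference was -0.05 (SE 0.40, 95% interval -0.96 to 0.87), an interval that still holds a change of nearly 1 log2 unit in either direction. Fgf15, the hormone of the ileum, was dim on every array and fell below the filter, so it had no value in the filtered fit. Its deposited intensities were 11.9 and 16.2 in the mutants, against 15.9 and 1.04 in the controls. Both mutant values and control replicate 1 were alike, and control replicate 2 was low. Without a filter the adjusted p of Fgf15 was 0.908 in limma.

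Rxra encodes the retinoid X receptor alpha, with which the bile acid, fatty acid, oxysterol, xenobiotic and vitamin D receptors pair on DNA, and its probe sets went different ways. The brightest one (1454773_at) had deposited intensities of 554 and 440 in the mutants, against 302 and 379 in the controls. On the normalized scale it averaged 8.91 ± 0.23 in the mutants and 8.44 ± 0.20 in the controls (SD, n = 2 each), with no overlap between the groups. The difference was 0.47 (SE 0.34, 95% interval -0.32 to 1.25; limma, adjusted p = 0.854). A dimmer probe set (1425762_a_at) stood at 5.16 and 5.55 in the mutants, against 5.41 and 5.74 in the controls, a difference of -0.22 (SE 0.41) with overlapping groups. In deposited intensities the same probe set had 33.2 and 34.0 in the mutants, below 46.4 and 44.8 in the controls. The dimmest one (1430497_at) was below the filter, with deposited intensities of 2.88 and 0.846 in the mutants and 5.94 and 3.22 in the controls. The sign for this gene thus depends on the probe set.

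Among the fatty acid receptors, Ppara had the most probe sets, and all 3 leaned towards the mutants without passing the test. Ppara encodes the receptor that drives fatty acid oxidation in fasting. Its brightest probe set (1439675_at) had deposited intensities of 1271 and 1150 in the mutants, against 799.9 and 670.8 in the controls. It averaged 10.17 ± 0.34 in the mutants and 9.59 ± 0.25 in the controls (SD, n = 2 each), and the groups did not overlap. The difference was 0.58 (SE 0.33, 95% interval -0.17 to 1.32), a fold of 1.49, and did not pass (limma, adjusted p = 0.811).

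The other Ppara probe sets showed smaller differences. Probe set 1457721_at stood at 8.09 and 8.17 in the mutants, just above 7.95 and 7.83 in the controls, a difference of 0.24 (SE 0.34). In deposited intensities its groups overlapped, with 338 and 227 in the mutants and 241 and 225 in the controls. Probe set 1449051_at varied more within a group than between the groups, with 6.91 and 8.18 in the mutants and 7.68 and 6.97 in the controls. It gave a difference of 0.22 (SE 0.49), which turned to -0.42 without mutant replicate 2 and to -0.13 without control replicate 2.

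Ppard encodes the most broadly expressed receptor of the family. Its tested probe set (1439797_at) stood at 6.33 and 5.77 in the mutants, against 5.399 and 6.25 in the controls, so the values interleaved. The difference was 0.23 (SE 0.44, 95% interval -0.79 to 1.24; limma, adjusted p = 0.954). The sign turned without control replicate 1, at -0.21, and without mutant replicate 1, at -0.05. A second probe set (1425703_at) was below the filter, with deposited intensities of 2.21 and 0.883 in the mutants and 1.68 and 2.93 in the controls.

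Pparg, known for its part in fat cells, macrophages and colon epithelium, showed the widest spread of the members. Its single probe set had deposited intensities of 83.9 and 10.2 in the mutants, against 56.4 and 117 in the controls. Mutant replicate 2 was thus the low array, and mutant replicate 1 lay between the controls. The difference was -1.17 (SE 0.72, 95% interval -2.83 to 0.48; limma, adjusted p = 0.825). Without mutant replicate 2 it was -0.07, and without mutant replicate 1 it was -2.22. Mutant replicate 2 was also the lowest array for 10 of the 17 proximal genes, whose highest array differed from gene to gene. The part of this in the Pparg difference was not tested.

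Values of other cell types are given beside Pparg and Nr1h3, which macrophages also express. The 13 macrophage markers averaged 6.56 and 6.57 in the mutants and 6.69 and 6.54 in the controls. The 7 adipocyte markers averaged 6.11 and 4.74 in the mutants and 5.35 and 5.10 in the controls. Of the 7, 4 were highest on mutant replicate 1 and 5 were lowest on mutant replicate 2. Below the filter were 3 of the 7, with the fat cell hormone genes Adipoq and Lep among them. Adipoq had deposited intensities of 36.5 and 3.5 in mutant replicates 1 and 2, against 2.7 and 9.7 in the controls. The part of these cells in the Pparg and Nr1h3 values was not tested.

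Nr1h3 encodes liver X receptor alpha, which switches on sterol efflux. Its probe set stood at 6.84 and 6.51 in the mutants, against 6.48 and 6.16 in the controls. The lower mutant value lay only slightly above the higher control value, and the deposited intensities of 134 and 68.4 in the mutants overlapped with 91.4 and 63.4 in the controls. The difference was 0.36 (SE 0.37, 95% interval -0.48 to 1.20; limma, adjusted p = 0.894).

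Nr1i2 encodes PXR, the inducer of drug-metabolising enzymes, and its probe sets had opposite signs. Probe set 1425723_at stood at 5.998 and 6.42 in the mutants, against 6.19 and 6.11 in the controls, a difference of 0.06 (SE 0.37, 95% interval -0.79 to 0.92). Probe set 1451807_at stood at 5.98 and 5.24 in the mutants, against 5.36 and 6.17 in the controls, a difference of -0.15 (SE 0.47, 95% interval -1.22 to 0.91). The groups overlapped on each probe set.

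Vdr, the vitamin D receptor gene, differed between the control arrays by more than between the groups, on both of its probe sets. Its brighter probe set (1418175_at) had deposited intensities of 1213 and 441 in the mutants, against 554 and 1344 in the controls. The other (1418176_at) had 663 and 335 in the mutants, against 389 and 751 in the controls. Both probe sets thus placed control replicate 2 highest, mutant replicate 1 next and the other arrays lower. The differences were -0.36 (SE 0.46, 95% interval -1.42 to 0.69) and -0.28 (SE 0.39, 95% interval -1.18 to 0.61), and neither passed (limma, adjusted p = 0.918 and 0.928). Without control replicate 2 both turned positive, at 0.24 and 0.17, and without mutant replicate 2 the brighter one stood at 0.03. Whether the stretch of intestine captured on each array moves Vdr and Pparg was not tested, and the labels do not give it.

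**Figure D2:**
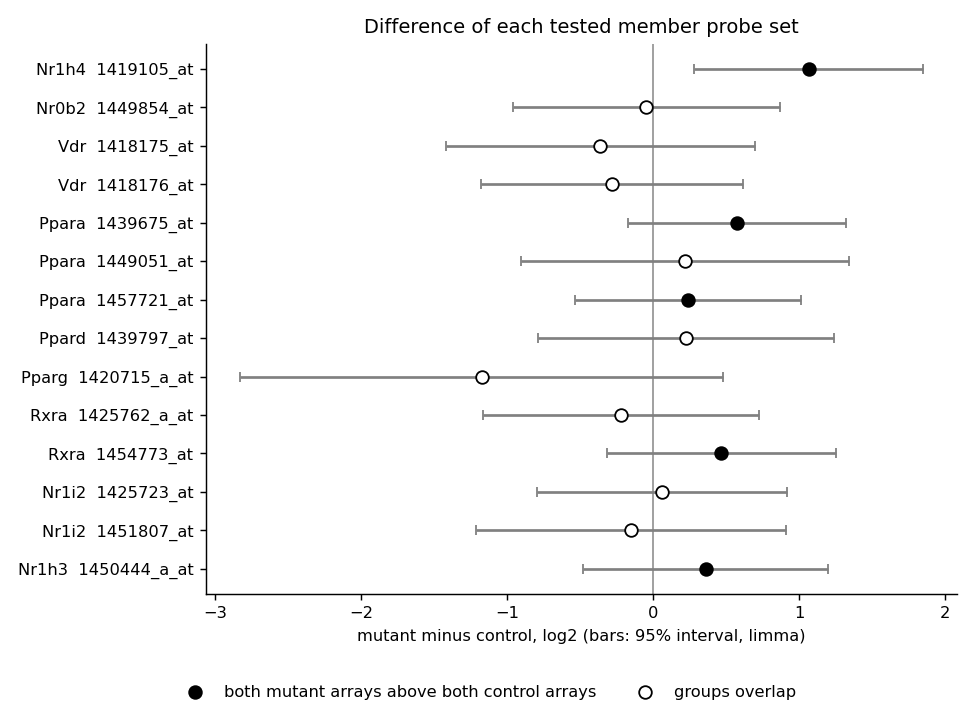
Mutant minus control difference (log2, horizontal axis) of the 14 member probe sets that passed the filter, with bars for the 95% interval of the limma fit; filled points mark probe sets on which both mutant arrays stood above both control arrays, open points those whose groups overlap. The interval for Nr1h4 runs from 0.28 to 1.85, and those of the other 13 probe sets include 0.

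The genes around these receptors were described from lists of known partners and targets, 148 genes in all, of which 127 had a probe set of their own and 100 passed the filter. Each gene is represented by its brightest probe set. Of the 100 genes 62 were higher and 38 lower in the mutants, with a median of 0.11 against 0.00880 for all 11395 genes tested, and 0 passed the test (limma). An unadjusted p below 0.05 was reached by 6 of the 100, against 6.94% of all genes. Both mutant arrays stood above both controls for 17 of the 100, where 18.9% of all genes did so, and below them for 6 of the 100, where 19.2% did so. These shares include no test of the lists.

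Genes of bile acid handling showed both directions. Of 10 tested genes, 7 were higher and 3 lower, with a median of 0.23. Slc51a and Slc51b encode the subunits of the exporter that passes bile acids from the enterocyte to the blood, and FXR is known to induce both. Slc51b stood at 7.54 and 7.82 in the mutants, against 7.24 and 6.08 in the controls, a difference of 1.02 (SE 0.45). Slc51a stood at 8.70 and 8.56 in the mutants, against 8.25 and 7.41 in the controls, a difference of 0.80 (SE 0.39). Mutant and control values did not overlap for either gene, and neither gene passed (limma, adjusted p = 0.789 for both). Control replicate 2 was the lowest array for both genes, and without it the differences were 0.43 for Slc51b and 0.38 for Slc51a. Both also belong to the ileal list, in which 7 of 10 tested genes were higher and 1 lower on both mutant arrays, where 18.9% and 19.2% of all genes were. That list includes hormone genes that are not confined to the ileum. Of its other genes, Fgf15 and Slc10a2 were below the filter, and the groups overlapped for Fabp6. The part of the captured stretch of intestine in these values was not tested.

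The bile acid binding protein gene Fabp6 and the uptake transporter gene Slc10a2, both ileal, were low. Fabp6 stood at 5.04 and 6.75 in the mutants, against 4.43 and 5.86 in the controls, with the arrays numbered 2 higher in both groups. Slc10a2 was below the filter, at 2.65 and 3.82 in the mutants and 3.42 and 2.68 in the controls. Fgfr4, the receptor gene for FGF15, was lower on both mutant arrays, at 5.47 and 5.22, against 5.66 and 6.62 in the controls. The difference was -0.79 (SE 0.45, limma, adjusted p = 0.811), and it was -0.30 without control replicate 2. A dimmer probe set of Fgfr4 differed by -0.18.

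Target genes of the liver X receptor gave the highest median of the 6 lists. Of 17 tested genes 15 were higher and 2 lower, with a median of 0.36, and on 6 of the 17 both mutant arrays stood above both controls, where 18.9% of all genes did so. The enterocyte markers lay on the same side, with 15 of 19 higher and a median of 0.33, and their part in the values of this list and of the PPAR list was not tested. Mylip, a ubiquitin ligase gene for the LDL receptor, stood at 6.98 and 6.93 in the mutants, against 6.19 and 5.43 in the controls, a difference of 1.14 (SE 0.40). Abcg5, a subunit gene of the sterol exporter, stood at 10.43 and 10.38 in the mutants, against 9.97 and 8.83 in the controls, a difference of 1.004 (SE 0.40). The cholesterol uptake gene Npc1l1 differed by 0.72 (SE 0.36) and the desaturase gene Scd2 by 0.98 (SE 0.49). The groups overlapped for Scd2 and not for Npc1l1. Targets that the receptor induces and targets that it represses were not told apart in this list. Abca1, an efflux target, was among the 2 lower genes of the list, at -0.28 (SE 0.45). None of the 17 passed (limma, adjusted p = 0.768 for Mylip and 0.785 for Abcg5), and the list median ranged from 0.27 to 0.65 with 1 array left out. Abcg5 stood at 0.43 and Npc1l1 at 0.37 without control replicate 2, and Scd2 at 0.25 without mutant replicate 2.

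Target genes of the PPAR receptors were also mostly higher. Some adipocyte markers are also in this list, and their part in its values was not tested. Of 24 tested genes 18 were higher and 6 lower, with a median of 0.28, and for 5 of the 24 the mutants lay above the controls without overlap, a share near the 18.9% of all genes. Creb3l3, a transcription factor gene of fasting metabolism, stood at 10.94 and 9.58 in the mutants, against 9.27 and 8.42 in the controls, a difference of 1.42 (SE 0.50). Angptl4, an inhibitor gene of lipoprotein lipase, stood at 6.76 and 7.48 in the mutants, against 6.30 and 5.65 in the controls, a difference of 1.14 (SE 0.42). The lipid droplet gene Plin2 differed by 0.69 (SE 0.33) and the carnitine carrier gene Slc25a20 by 0.63 (SE 0.31). Other genes of fatty acid oxidation varied, with Acaa1b at 1.015 (SE 0.64), Acadm at -0.10 (SE 0.31) and Acadl at 0.11 (SE 0.28). With 1 array left out the smallest differences were 0.73 for Creb3l3, 0.80 for Angptl4, 0.46 for Plin2 and 0.30 for Slc25a20. The brightest probe set of Cpt1a, which admits fatty acids to mitochondria, stood at -0.10 (SE 0.33), and its other probe sets at -1.49 and -0.34. None passed (limma, adjusted p = 0.768 for Creb3l3 and 0.772 for Angptl4), and the list median was 0.06 without control replicate 2.

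Vitamin D receptor targets leaned the other way. Of 8 tested genes 2 were higher and 6 lower, with a median of -1.04, which was -0.16 with a filter at the 70th percentile. S100g, the calcium binding protein gene calbindin of the duodenum, had deposited intensities of 54.7 and 1.22 in the mutants, against 120 and 134 in the controls. Its difference was -2.80 (SE 0.84; limma, adjusted p = 0.768), and it was -4.24 without mutant replicate 1 and -1.28 without mutant replicate 2. Slc30a10, a manganese exporter gene, differed by -1.15 (SE 0.56), the sugar phosphate carrier gene Slc37a2 by -1.24 (SE 0.58) and Cubn, which takes up vitamin B12 bound to intrinsic factor, by -1.11 (SE 0.51). The groups overlapped for Slc30a10 and Slc37a2 and not for Cubn. Without control replicate 1 Slc37a2 stood at -0.44 and Cubn at -0.48, and without mutant replicate 2 Slc30a10 stood at -0.45. With a pseudocount of 16 Cubn stood at -2.26. S100g also belongs to the proximal list, whose level was low in mutant replicate 2, and the part of that in the S100g difference was not tested. Trpv6, the calcium channel gene, and Cyp24a1, which degrades vitamin D, were below the filter.

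Genes induced by PXR and CAR followed no single direction. Of 19 tested genes 8 were higher and 11 lower, with a median of -0.03. Cyp2c55, a cytochrome gene, stood at 4.60 and 4.68 in the mutants, against 7.41 and 5.52 in the controls, a difference of -1.82 (SE 0.60; limma, adjusted p = 0.768). Cyp3a11, the classical PXR target, stood at 12.01 and 10.86 in the mutants, against 12.81 and 11.64 in the controls, a difference of -0.79 (SE 0.46). The drug exporter gene Abcb1a differed by 1.02 (SE 0.49) and Aldh1a1 by 0.75 (SE 0.46), with overlapping groups for both genes. Without control replicate 2 Abcb1a stood at 0.23. Cyp2c55 stood at -0.90 without control replicate 1, and Cyp3a11 at -0.19 without mutant replicate 2. As for the enterocyte markers, the list level was higher on the arrays numbered 1, at 9.23 and 8.67 in mutant replicates 1 and 2 and 9.82 and 8.35 in control replicates 1 and 2.

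Other receptors and co-regulators were close to level, with 12 of 22 tested genes higher, 10 lower and a median of 0.07. Rarg, a retinoic acid receptor gene, differed by 1.08 (SE 0.49), the co-activator genes Ncoa1 and Crebbp by 0.74 (SE 0.38) and 0.49 (SE 0.31), and Ncoa2 by -0.57 (SE 0.38). Dimmer probe sets differed by 0.20 for Ncoa1, by 0.20 and 0.05 for Crebbp, and by -0.24 and 0.43 for Ncoa2. The sign for Ncoa2 thus depends on the probe set. Hnf4a, which governs enterocyte genes, stood at 11.31 and 11.53 in the mutants, against 11.04 and 11.50 in the controls, and its 3 dimmer probe sets differed by -0.01, -0.80 and -0.28. Nr5a2, a receptor that SHP represses, stood at 8.92 and 8.73 in the mutants, between the control values of 8.27 and 9.26.

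**Figure D3:**
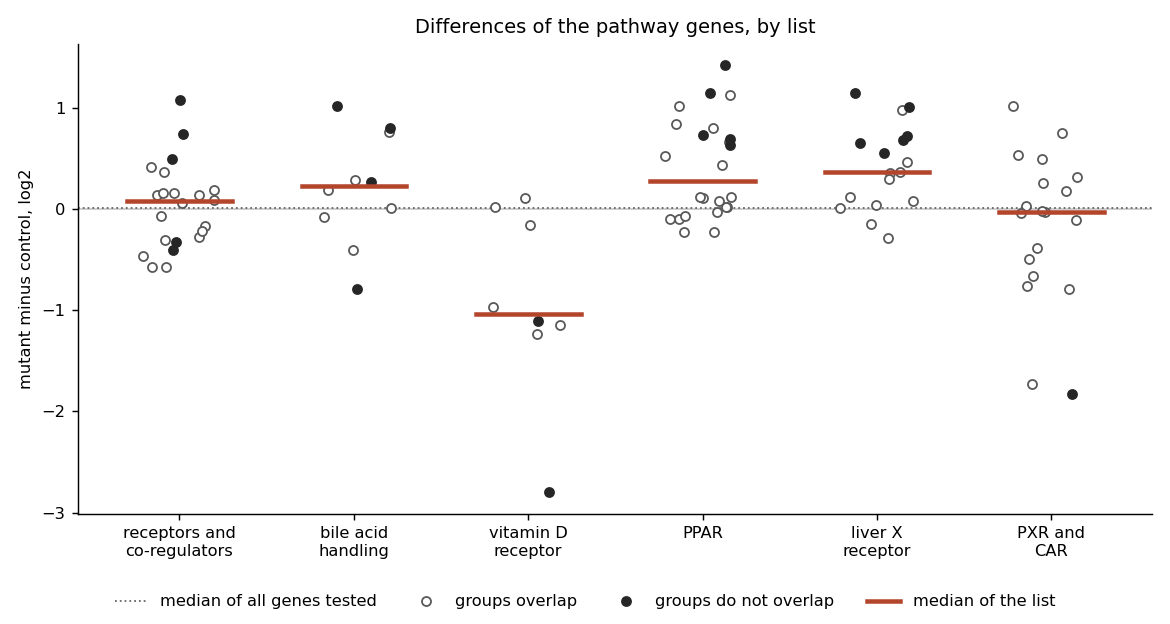
Mutant minus control difference (log2, vertical axis) of each tested gene in the 6 pathway lists; filled points are genes whose mutant and control arrays do not overlap, open points those that overlap, red bars the median of a list and the dotted line the median of all genes tested. The liver X receptor list has the highest median, 0.36, and the vitamin D receptor list the lowest, -1.04, with S100g at -2.80.

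**Figure D4:**
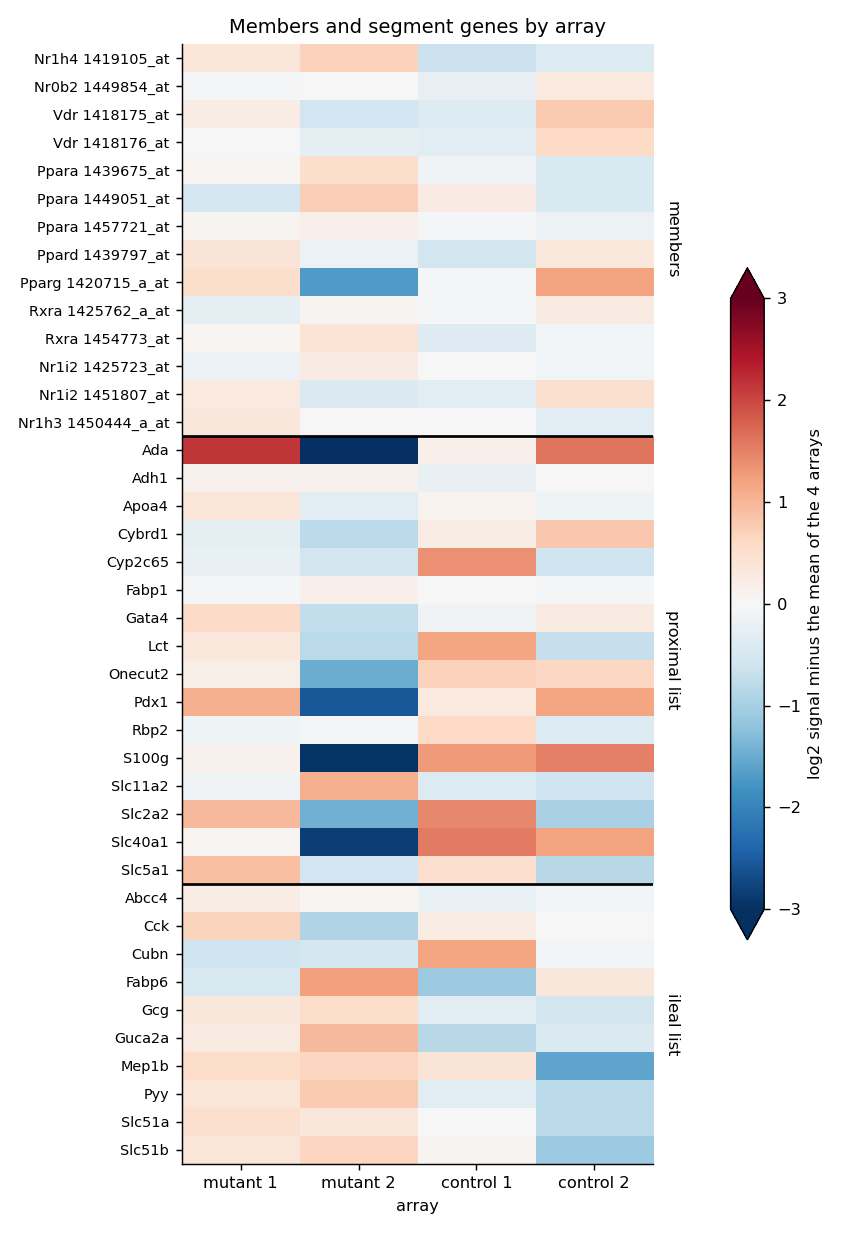
Signal of the 14 tested member probe sets (top), the tested genes of the proximal list (middle) and those of the ileal list (bottom) on each array. Colours show the difference of each value from the mean of the 4 arrays (log2) and end at 3 in either direction. Pparg is low in mutant replicate 2 together with Pdx1, Ada and S100g of the proximal list, whereas Nr1h4 is high on both mutant arrays. Mutant replicate 2 was the lowest array for 10 of the 17 listed proximal genes, and the rest were lowest on other arrays.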

How the data were processed

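RNA of laser-captured crypts was amplified in 2 rounds and labelled with biotin, per the labels' protocols. The deposited table holds probe set intensities on a linear scale for 45101 probe sets on 4 arrays. The authors' signal algorithm was MAS5, per the submitters' processing notes, whose version and scaling target were not given in the sources used. This algorithm subtracts mismatch signal, so dim probe sets are noisy, and repeated amplification shortens transcripts at the 5′ end. No detection calls were used.

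Control probe sets, 64 in number, were dropped. Of the other 45037, 34945 carried 1 gene symbol, 932 several and 9160 none. Values were taken as log2(intensity + 5), 5 being the 20th percentile of all values, rounded, so folds of dim probe sets are understated. Trimmed means (2%) differed 1.53-fold between arrays, beyond a limit of 10%, and values were quantile normalized. Probe sets at or above the median of mean signal (log2 of 4.79) were kept, 22519 in all, a filter that does not use the groups. Mutant and control were compared with limma 3.58.1 in R 4.3.3 (lmFit, eBayes with intensity trend, two-sided, p-values adjusted by Benjamini-Hochberg across the kept probe sets, threshold 0.05), with 2 residual and 6.4 prior degrees of freedom. The exact permutation test of 2 arrays against 2 cannot give a two-sided p below 0.333 and was not used. The fit was also run on simulated data with known changes, the outcome of which is not given here. The number of arrays limits the precision.

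A gene in a list was represented by its brightest probe set, chosen anew in each setting. Named genes were all members, Ctnnb1 and, in each pathway list, the 4 genes with the smallest p; Hnf4a, Nr5a2, Abca1, Cpt1a, Acadm, Acadl, Acaa1b, Slc10a2, Trpv6, Cyp24a1, Adipoq, Lep, Pdx1, Ada, Epcam, Cdh1 and Vil1 were named outside this rule, after their values were seen. Genes with the pattern most like a member were not sought, since 4 arrays are too few for a correlation. The members and lists were chosen with earlier results of these data known. Promoters were matched by symbol. Alternatives covered scaling, pseudocount, filter, variance model, a replicate block, each array left out and, for list medians, a gene's averaged probe sets.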

Additional observations from a re-analysis of the deposited data

How the results depend on the processing

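Under each of the 9 alternatives that keep all arrays and the 4 that leave out 1, 0 member probe sets passed the test, and the difference for Nr1h4 stayed between 0.89 and 1.24 (adjusted p from 0.532 to 0.9999 in limma). The number of member probe sets with both mutant arrays above both controls was 3 with the values as deposited, against 5 otherwise. It was between 5 and 8 with 1 array left out, where fewer arrays make separation easier. Over all 22519 probe sets it was 2989 as deposited and 3900 in the main setting. With 1 array left out it was between 7096 and 8214 of the 22519. The number of member probe sets with both below was 1 as deposited and with no filter, against 0 otherwise, and between 0 and 6 with 1 array left out. Over all 22519 probe sets it was 3567 as deposited and 4258 in the main setting. It was 7932 of 45037 with no filter, and between 7537 and 8076 of 22519 with 1 array left out. With the values as deposited the difference for Nr1i2 1425723_at turned to -0.043 and the median of the PXR and CAR list to 0.14. That list stood at 0.26 with median centring and 0.0042 with a filter at the 70th percentile, and the list of receptors and co-regulators at -0.0038 with a gene's averaged probe sets. The cause was not tested.

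With 1 array left out the sign turned for some members, with ranges of -0.32 to 0.21 for Nr0b2, -0.97 to 0.24 and -0.75 to 0.17 for the Vdr probe sets, -0.42 to 0.84 for Ppara 1449051_at, -0.21 to 0.63 for Ppard, -0.16 to 0.27 for Nr1i2 1425723_at and -0.58 to 0.24 for Nr1i2 1451807_at. It also turned for the receptor list (-0.082 to 0.052), the PXR and CAR list (-0.54 to 0.75), Fabp6 (-0.11 to 1.56) and Aldh1a1 (-0.050 to 1.57). Medians ranged from 0.27 to 0.65 for the liver X receptor list, 0.06 to 0.53 for the PPAR list, 0.10 to 0.32 for bile acid handling and -1.22 to -0.46 for the vitamin D receptor list. With all arrays the vitamin D list stood at -0.16 with the 70th percentile filter and -0.63 with no filter, and the PPAR list at 0.58 with median centring and 0.11 with the 70th percentile filter. Of the pathway genes 0 passed in the main setting. With median centring 1 passed, S100g (limma, adjusted p = 7.85e-05). With 1 array left out the number was 0 to 1, namely S100g without mutant replicate 1 (adjusted p = 0.0101) and Aqp7, chosen after its value was seen, without mutant replicate 2 (adjusted p = 0.00492). Over the 12 alternatives that gave it a value the adjusted p of S100g ran from 7.85e-05 to 0.906.

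Over all probe sets the number of calls was 0 in the main setting, 2 with the values as deposited, 102 with median centring, 20 without mutant replicate 1 and 90 without mutant replicate 2, where the only mutant array left held pancreatic transcripts. With the replicate number as a block it was 1, and 0 members were called. The labels give no pairing, and the deviations of same-numbered arrays correlated at 0.0339 across probe sets, although the enterocyte markers, the PXR and CAR list and the actin ratio were higher on the arrays numbered 1 in both groups. With an array left out, its partner is assumed to vary like the other group.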
